A study of Mus musculus with 6 samples.

Results

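Interferon-stimulated genes and the genes of MHC class I antigen presentation were examined in RNA-seq of the mouse optic nerve after Nf1 had been targeted in mature oligodendrocytes. The 34 genes were given as a list of names, and all 34 were found among the 24062 genes counted. They fall into sensors of viral RNA (2 genes), transcription factors of the interferon response (3), antiviral effectors (11), Isg15 with other regulators of the response (6), guanylate-binding proteins with the chemokine gene Cxcl10 (4), and MHC class I presentation (8). Members and comparison lists were chosen with earlier results of these data known.

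The group labelled NF1 f/f had 3 libraries from optic nerves of genotype PlpCreERT2;Nf1flox/flox. In these mice a tamoxifen-activated Cre recombinase is active in oligodendrocytes, and both Nf1 alleles carry loxP sites. The group labelled Ctrl had 3 libraries without the Cre, of genotype Nf1flox/flox in library 1 and Nf1flox/+ in libraries 2 and 3. Per the labels, tamoxifen was given to adults over 2 months old, and nerves were collected 1 month afterwards. Neurofibromin, the product of Nf1, lowers Ras activity. Genotype sets control library 1 apart, and counts of the sex-linked gene Xist set control library 2 (72727) apart from control library 3 (34). The 3 controls thus came from different animals. For the NF1 f/f libraries nothing in the labels says so beyond a separate letter code in each title. The spread behind every p-value may therefore be technical in part.

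Interferons are secreted proteins that bind receptors on other cells and, through JAK kinases, activate transcription factors, STAT2 among them. A complex of STAT2 with IRF9 binds a short DNA element, the interferon-stimulated response element, and switches on antiviral genes. MHC class I molecules display peptides that the proteasome cuts and that the TAP transporter carries into the endoplasmic reticulum. In the healthy nervous system these genes are known to be active at a low level, mostly in microglia and vessel cells.

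Library totals were 19012262, 13948624 and 13555756 counts in NF1 f/f libraries 1, 2 and 3, against 21307855, 23662698 and 22872063 counts in control libraries 1, 2 and 3. Nf1 had 303, 226 and 432 CPM (counts scaled to library size) in the NF1 f/f libraries, against 393, 399.7 and 336 CPM in controls (edgeR log2 fold change -0.23, adjusted p 0.703). These counts cover all exons of Nf1, so they do not check the deletion. All 12 oligodendrocyte markers and all 10 astrocyte markers looked up were detected in every library. NF1 f/f libraries 1 and 3 stood apart from the other 4. Oligodendrocyte markers summed to 5925, 35876 and 5000.0 CPM in NF1 f/f libraries 1, 2 and 3, against 27632, 28722 and 27708 CPM in controls. Neuron markers summed to 6749.9, 1957 and 4716 CPM, against 708, 796 and 1220.5 CPM, and striatal projection neuron markers to 2219.9, 1377 and 1515 CPM, against 122, 111 and 167 CPM. Xist was high in all NF1 f/f libraries and in control library 2 (30602 to 72727 counts), against 34 and 58 counts in control libraries 3 and 1, so group and sex-linked expression are partly confounded.

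Sequence upstream of these genes shows what many of them share. RefSeq promoter windows (GRCm38.p6, the same assembly as mm10) of 300 bases, from 250 before to 50 after the start site, were found for 27 of the 34 genes, in 31 windows. Ifi27, Mx1, Mx2, Oas2, Parp14, Tap2 and Usp18 had no entry. The interferon-stimulated response element was searched as GAAANNGAAA on both strands. It was present in 14 of the 27 genes (51.9%) and in 1079 of all 27025 genes with a window (3.99%). As examples of the element, the antiviral effector, the regulator and the MHC class I gene with the smallest p among those with a match are shown for the 250 bases before the start site, 5′ to 3′ on the gene's strand, with matches to the element in capitals. Rsad2 lies on chr12:26456453-26456702 (minus strand), Isg15 on chr4:156200819-156201068 (minus strand) and B2m on chr2:122147437-122147686 (plus strand).
Rsad2: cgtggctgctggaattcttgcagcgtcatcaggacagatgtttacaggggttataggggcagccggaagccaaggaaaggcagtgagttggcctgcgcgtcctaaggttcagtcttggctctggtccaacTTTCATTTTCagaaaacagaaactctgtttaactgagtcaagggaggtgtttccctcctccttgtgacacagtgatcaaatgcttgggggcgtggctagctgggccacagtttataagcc
Isg15: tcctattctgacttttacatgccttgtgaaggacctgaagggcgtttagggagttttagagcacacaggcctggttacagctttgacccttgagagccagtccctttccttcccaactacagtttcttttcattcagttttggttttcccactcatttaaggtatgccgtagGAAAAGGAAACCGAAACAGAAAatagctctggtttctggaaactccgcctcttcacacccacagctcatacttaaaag
B2m: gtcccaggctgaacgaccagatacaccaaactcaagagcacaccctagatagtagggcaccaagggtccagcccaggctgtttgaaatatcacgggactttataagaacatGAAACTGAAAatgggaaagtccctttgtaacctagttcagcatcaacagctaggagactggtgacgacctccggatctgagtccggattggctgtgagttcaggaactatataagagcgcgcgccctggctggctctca
Isg15 held 3 overlapping matches that began 78, 72 and 66 bases before the start site, Rsad2 held 1 that began 120 bases before it, and B2m 1 that began 139 bases before it. The 14 genes held 21 matches in all. The commonest letters, GAAACTGAAA or the same read on the other strand, TTTCAGTTTC, occurred in 8 genes: B2m, Bst2, Gbp3, Gbp7, Ifit1, Ifit3, Oas1a and Stat2. GAAAGTGAAA, or TTTCACTTTC on the other strand, occurred in Cxcl10, Gbp2, Ifit1 and Ifit3. In Ddx58 and Ifih1 the match began after the start site, at bases 3 and 33 of the transcript.

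The matches were unevenly spread over the roles. Only the exact letters searched count here, so a gene without a match may still hold a looser form of the element. All 4 guanylate-binding protein and chemokine genes held one, as did both sensors, 5 of 8 antiviral effectors with a window, 1 of 3 regulators (Isg15), 1 of 3 transcription factors (Stat2) and 1 of 7 MHC class I genes (B2m). Other elements were sparser. TTCNNNGAA, the gamma-activated site, searched on both strands, was in Bst2, Gbp7, Ifit2, Oas1a and Psmb8, which is 18.5% of the 27 genes and compares with 9.55% of all genes. An NF-kappa-B-like site, searched as GGGA, any base, T, any 2 bases and CC, was in B2m, Cxcl10, H2-D1 and H2-K1, 14.8% of the 27 genes, where all genes had 4.79%. In Bst2 the first 2 of these elements shared 3 bases. The windows of Psmb9 and Tap1, which lie head to head on chromosome 17, shared 275 bases.

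Expression was compared between 3 NF1 f/f and 3 control libraries to ask which of these transcripts differ 1 month after tamoxifen. All 34 genes passed the filter on low counts, and none passed an adjusted p of 0.05 in the edgeR quasi-likelihood test over 16315 genes, where 537 genes passed, 3.29% of those tested (2.95% higher and 0.337% lower in NF1 f/f). At an unadjusted p under 0.05 there were 2 of the 34, Rsad2 and Ddx58, both lower, beside 19.2% of all genes at that level, with 8.02% lower. DESeq2 and limma-voom also called 0 of the 34, where they called 10.1% and 3.1% of all genes. At an unadjusted p under 0.05, DESeq2 had 3 of the 34, beside 22.0% of all genes, and limma-voom had 8 of the 34, near its share of 22.5% of all genes. With other scalings, without the ribosomal RNA gene Rn45s or without a filter, edgeR also called 0 of the 34, beside 3.41% of all genes with DESeq2's size factors, 3.23% with upper quartile scaling, 3.54% with total counts, 3.22% without Rn45s and 4.07% without the filter. The fold changes nevertheless leaned one way. Of the 34, 33 had a negative log2 fold change, where 50.1% of all genes did, and the median was -0.64, where that of all genes was 0.00 on the same scale to 2 decimals.

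The low values lay mostly in 2 libraries. Summed over the 34 genes, the level was 632, 1569.8 and 581 CPM in NF1 f/f libraries 1, 2 and 3, against 1156, 1513 and 1693 CPM in control libraries 1, 2 and 3. NF1 f/f library 2 thus lay inside the control range and the other 2 lay below it. Library 1 was under every control in 29 of the 34 genes (37.4% of all genes), library 3 also in 29 (39.3%), and library 2 in 4 (29.5%). Both libraries 1 and 3 were under every control in 26 of the 34 (27.3% of all genes). The 8 exceptions were Oas1a, Oas2, Mx1, Ifi44, Bst2, Gbp3, Psmb8 and Dtx3l. NF1 f/f library 2 was the highest NF1 f/f library in 31 genes and lay within the control range in 24.

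**Figure D1:**
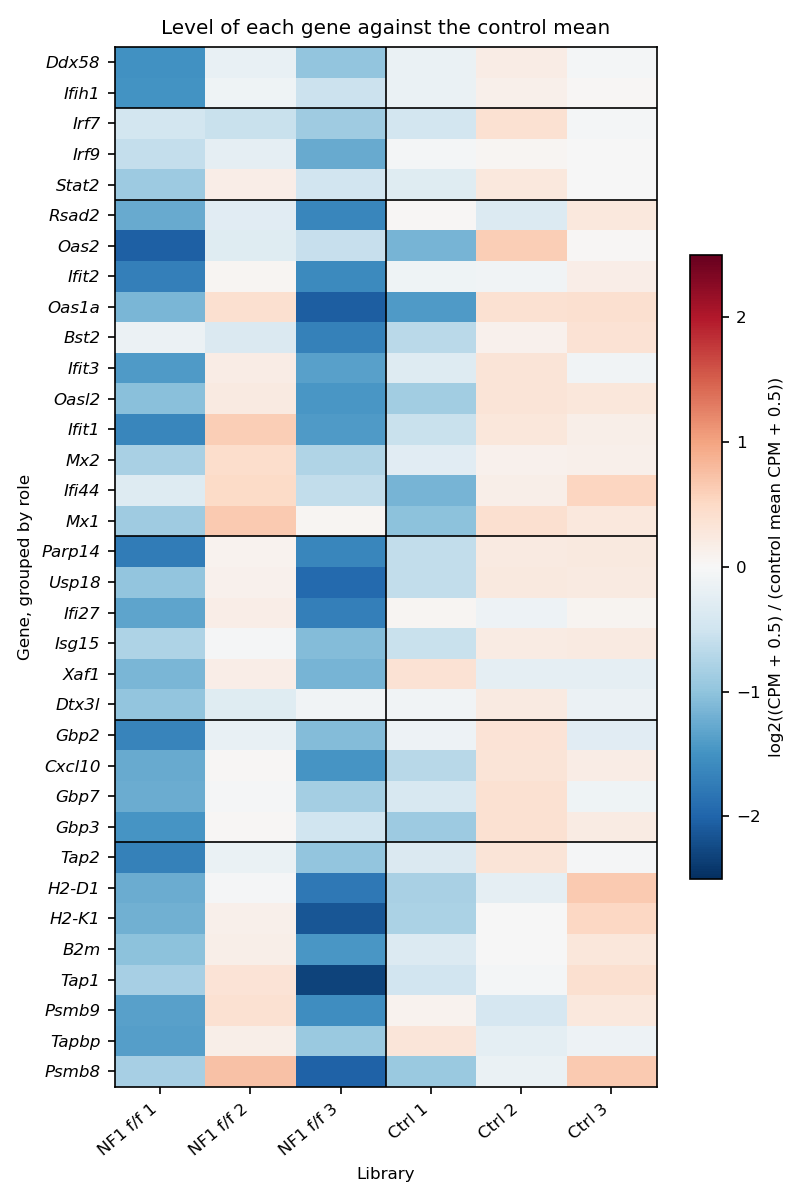
Each row is 1 of the 34 genes, grouped by role in the order of the text, and each column 1 library. Colour gives log2 of (CPM + 0.5) over (control mean CPM + 0.5); NF1 f/f libraries 1 and 3 are blue in nearly all rows, NF1 f/f library 2 lies within the control range in 24 rows, and control library 1 is the lowest control in 27.

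Without NF1 f/f library 2, 21 of the 34 fell (61.8%), where 13.8% of all genes fell and 13.2% rose, and none of the 34 rose (edgeR, adjusted p under 0.05). Their log2 fold changes in that fit ran from -1.71 to -0.91 and the adjusted p from 0.000425 to 0.0476. The 13 that did not pass were Bst2, Dtx3l, Gbp3, Ifi44, Irf7, Isg15, Mx1, Mx2, Oas1a, Oas2, Psmb8, Stat2 and Tap1. The median of the 34 was -1.25 without library 2, and -0.47 and -0.41 without NF1 f/f libraries 1 and 3. With NF1 f/f library 2 alone against the controls, chosen after seeing the data, 13 of the 34 were negative and the median was 0.10. In that fit the lone library is assumed to vary as the controls do, and its 0 calls among the 34, beside 1.28% of all genes, say little. Without control library 1, 2 or 3, or NF1 f/f library 1 or 3, 0 of the 34 passed, beside 0.306%, 0.488%, 0.675%, 0.977% and 1.19% of all genes in that order.

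**Figure D2:**
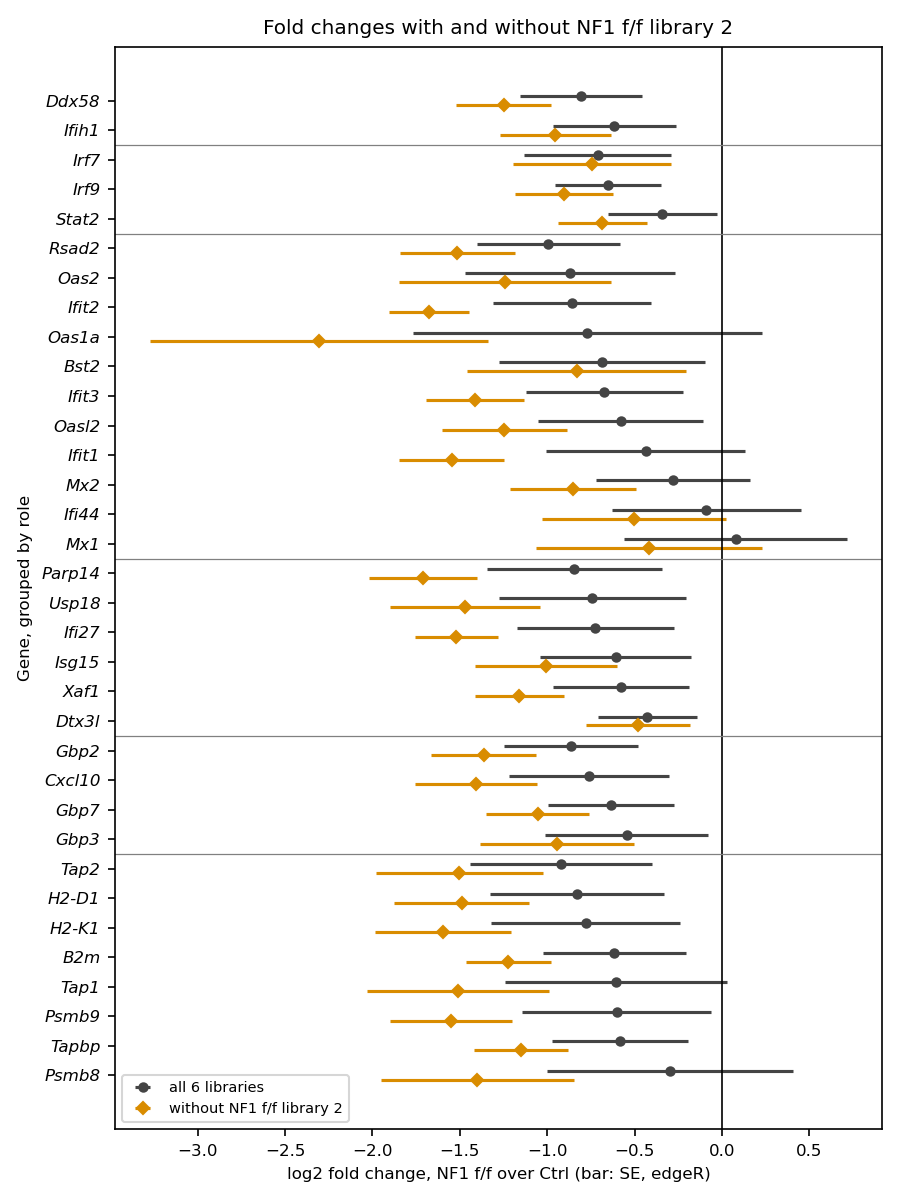
Points give each gene's log2 fold change, NF1 f/f over Ctrl, with bars of 1 SE from edgeR, for all 6 libraries (circles) and without NF1 f/f library 2 (diamonds). Every diamond lies left of its circle, and the 34 genes have a median of -0.64 with all libraries and -1.25 without library 2.

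Controls also differed among themselves. Control library 1, the one of genotype Nf1flox/flox, was the lowest control in 27 of the 34 genes, and its median deviation from the control mean was -0.43 log2 units, beside 0.20 and 0.17 in control libraries 2 and 3. Without it the median fold change was -0.81. Control library 2, the control with high Xist, exceeded NF1 f/f libraries 1 and 3 in all 34 genes (50.3% and 51.4% of all genes). It exceeded NF1 f/f library 2 in 18 of the 34, near the share of all genes (50.6%). It also exceeded control library 1 in 29 (50.2% of all genes) and control library 3 in 18, again near the share of all genes (49.5%). With Xist as a covariate, 0 of the 34 and 0 of all genes passed in edgeR, with 0 and 1300 at an unadjusted p under 0.05. Among libraries with high Xist alone, a set chosen after seeing the data, the control arm is 1 library, and the median of the 34 was -0.75. No gene in the whole table passed there in edgeR (894 at an unadjusted p under 0.05), so that fit says nothing about single genes.

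The sensors of viral RNA are RIG-I, encoded by Ddx58, and MDA5, encoded by Ifih1, which detect RNA ends and long double strands in the cytoplasm. Ddx58 (mm10 chromosome 4, 40203777 to 40239825) had 11.8, 30.6 and 17.4 CPM in NF1 f/f libraries 1, 2 and 3, against 31.1, 39.7 and 33.8 CPM in control libraries 1, 2 and 3. The NF1 f/f libraries were all lower, although library 2 nearly reached the lowest control. In edgeR this was -0.81 on the log2 scale (SE 0.35, adjusted p 0.250), and -1.25 without NF1 f/f library 2 (adjusted p 0.00635). Ifih1 (chromosome 2) had 9.92, 27.0 and 19.9 CPM in NF1 f/f, against 25.7, 31.5 and 29.5 CPM in controls. Its groups overlapped through library 2, and its log2 fold change was -0.61 (SE 0.35, adjusted p 0.384).

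Of the transcription factors, all 3 had a negative log2 fold change, with a median of -0.65. Irf9, the DNA-binding partner of STAT2, had 15.5, 20.1 and 9.62 CPM in NF1 f/f, against 23.01, 24.7 and 23.4 CPM in controls. All NF1 f/f values lay under the narrow control range (-0.65 on the log2 scale, SE 0.30, adjusted p 0.282). Irf7, a factor that amplifies interferon production, had 3.34, 3.10 and 2.37 CPM in NF1 f/f, against 3.37, 6.42 and 4.64 CPM in controls, which is -0.71 on the log2 scale (SE 0.42, adjusted p 0.398). Its groups did not overlap, but the highest NF1 f/f and lowest control values were almost equal. With Ddx58, these were the 3 of 34 genes whose groups did not overlap downward, where 11.5% of all genes did so. Stat2 had 27.9, 59.6 and 37.6 CPM in NF1 f/f, against 42.5, 63.4 and 52.4 CPM in controls, with overlapping groups (log2 fold change -0.34, SE 0.31, adjusted p 0.595).

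Antiviral effectors had a median log2 fold change of -0.67, with 10 of 11 negative. Rsad2 encodes viperin, an enzyme that makes a chain-terminating nucleotide. It had 5.71, 11.8 and 4.32 CPM in NF1 f/f, against 14.7, 11.3 and 17.3 CPM in controls. Only NF1 f/f library 2 entered the control range, and this gene had the smallest p of the 34 (log2 fold change -0.99, SE 0.41, adjusted p 0.233). The Ifit genes encode proteins that bind viral RNA lacking normal caps, and the 3 of them lie within chromosome 19, 34550694 to 34650009. Ifit2 had 18.5, 64.2 and 20.2 CPM in NF1 f/f, against 58.0, 58.3 and 70.1 CPM in controls. Libraries 1 and 3 were far under the controls and library 2 among them, so that the log2 fold change was -0.86 (SE 0.45, adjusted p 0.341), and -1.67 without library 2 (SE 0.23, adjusted p 0.000425). Ifit3 had 11.5, 35.8 and 11.99 CPM in NF1 f/f, against 25.2, 39.6 and 29.4 CPM in controls (log2 fold change -0.67, adjusted p 0.451). Ifit1 had 14.8, 72.0 and 17.1 CPM in NF1 f/f, against 31.4, 56.9 and 51.8 CPM in controls, so its highest and its lowest values were both in NF1 f/f (log2 fold change -0.44, SE 0.57, adjusted p 0.724).

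The other effectors repeated the order of libraries less cleanly. Oasl2, a 2-5A synthetase-like gene, had a log2 fold change of -0.58. Its relatives Oas2 and Oas1a, whose products activate RNase L, had -0.87 and -0.77, with SE of 0.60 and 1.00. The Mx genes encode GTPases that trap viral particles, with Mx2 at -0.28 and Mx1 at 0.08. Mx1 was the 1 positive value, and it became negative without control library 1 (-0.28) and without NF1 f/f library 2 (-0.42). Bst2, or tetherin, which holds budding virions at the membrane, was at -0.69, and Ifi44 at -0.09. Oas1a had the lowest count of the 34 genes in any library, 2, and was the 1 gene with a count under 10. Reads can be shared among the close relatives of the Ifit, Oas, Mx and Gbp families, so their values are uncertain to that extent.

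**Figure D3:**
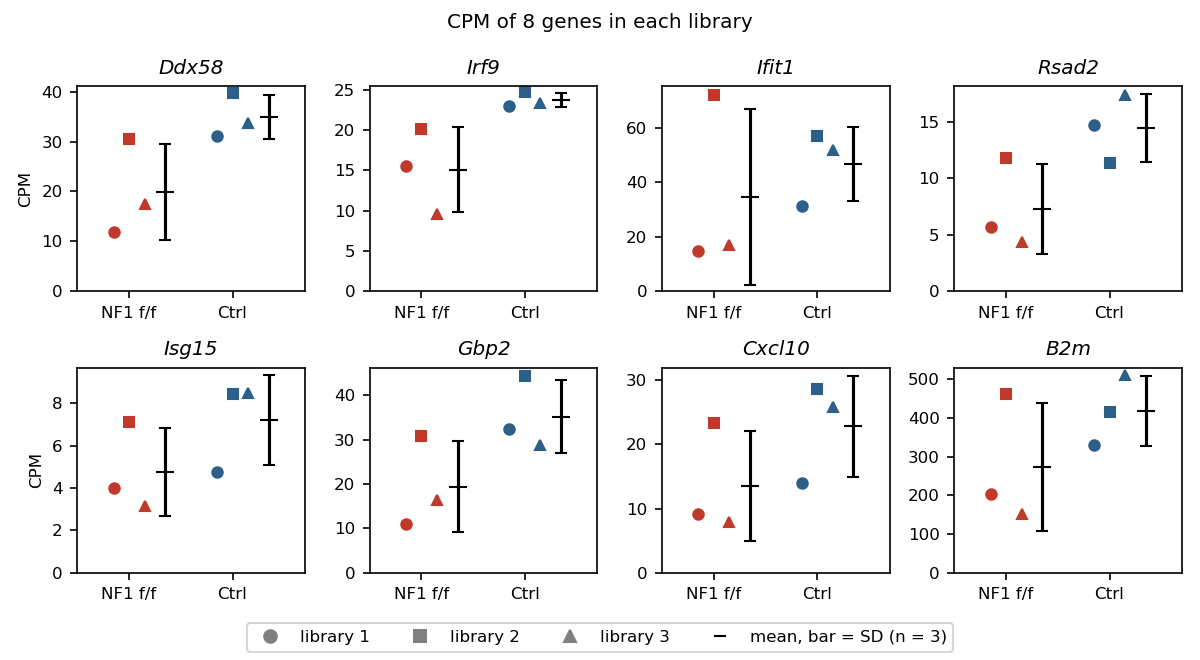
CPM of 8 of the genes in each library, with circles, squares and triangles for libraries 1, 2 and 3 of each group, and the mean with SD (n = 3) beside them. Squares mark NF1 f/f library 2, which lies above the other NF1 f/f libraries in all 8 panels and above every control in Ifit1.

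Isg15 and the regulators were all negative, with a median of -0.67. Isg15, a ubiquitin-like protein that is attached to other proteins during the response, had 3.99, 7.10 and 3.14 CPM in NF1 f/f, against 4.75, 8.41 and 8.46 CPM in controls. Libraries 1 and 3 lay under the controls and library 2 within them (-0.61 on the log2 scale, SE 0.43, adjusted p 0.484). Usp18, which removes it again and dampens receptor signalling, had -0.74. Parp14, an ADP-ribosyltransferase, had 12.6, 46.2 and 13.7 CPM in NF1 f/f, against 28.3, 50.6 and 51.2 CPM in controls. Libraries 1 and 3 were under all controls and library 2 was not (log2 fold change -0.84, SE 0.50, adjusted p 0.400). Ifi27, a mitochondrial and nuclear envelope protein, had 22.7, 64.8 and 17.3 CPM in NF1 f/f, against 60.0, 52.8 and 60.1 CPM in controls. This gap of libraries 1 and 3 from tightly grouped controls gave -0.72 with all libraries (SE 0.45, adjusted p 0.418) and -1.52 without library 2 (adjusted p 0.000910). Xaf1, a gene of apoptosis control, had -0.58.

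Dtx3l, a ubiquitin ligase, was an exception to the order of libraries. It had 18.4, 29.8 and 34.7 CPM in NF1 f/f, against 34.9, 43.2 and 33.3 CPM in controls, so NF1 f/f library 3 and not library 2 was the highest. Its log2 fold change was -0.43 (SE 0.28, adjusted p 0.450), and -0.48 without library 2 (adjusted p 0.275). Counting did not use strand, and 334 bases of its exons overlap Parp9 on the other strand, which itself had -0.51 (SE 0.52). Exons of Ifi27 overlap Ifi27l2a over 103 bases, so these 2 members are uncertain where the partners meet.

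Guanylate-binding proteins, which attack the membranes of intracellular pathogens, had log2 fold changes of -0.87 for Gbp2, -0.63 for Gbp7 and -0.55 for Gbp3. Gbp2 had 10.9, 30.7 and 16.4 CPM in NF1 f/f, against 32.3, 44.4 and 28.8 CPM in controls (SE 0.38, adjusted p 0.261). Gbp7 had 15.1, 35.6 and 19.9 CPM in NF1 f/f, against 27.5, 47.9 and 33.9 CPM in controls (SE 0.36, adjusted p 0.378). In both, libraries 1 and 3 lay under the controls and library 2 within them. Cxcl10, a chemokine that attracts T cells, had 9.22, 23.3 and 7.88 CPM in NF1 f/f, against 13.9, 28.7 and 25.8 CPM in controls, with control library 1 between the other controls and NF1 f/f library 1 (log2 fold change -0.76, SE 0.46, adjusted p 0.404).

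MHC class I genes included the 3 with the highest mean levels of the set and had a median log2 fold change of -0.61, with 8 of 8 negative. B2m, the light chain shared by class I molecules, averaged 318 ± 193 FPKM in NF1 f/f and 488 ± 105 FPKM in controls (CPM per kilobase of exon, SD, n = 3 each). It was the highest of the 34 genes on that scale. Its CPM was 205, 462 and 152 in NF1 f/f, against 330.0, 415 and 510.2 in controls, which is -0.62 on the log2 scale (SE 0.41, adjusted p 0.449), and -1.22 without NF1 f/f library 2 (SE 0.24, adjusted p 0.00393). The heavy chain genes H2-K1 and H2-D1 came next in level, with 43.0 ± 33.4 and 34.8 ± 22.7 FPKM in NF1 f/f, against 73.7 ± 31.3 and 61.8 ± 32.0 FPKM in controls. These 2 did not differ beyond their spread from each other or from Ifi27. H2-D1 had 45.2, 105 and 30.9 CPM in NF1 f/f, against 61.4, 91.5 and 169 CPM in controls, so that the controls alone spanned a wide range (log2 fold change -0.83, SE 0.50, adjusted p 0.403). Of its 1736 exon bases, 1060 are also annotated to H2-L, and fragments there are not assigned by the counting used, so its level is uncertain.

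Peptide supply genes had lower levels. Tap2, a subunit of the peptide transporter, had 1.35, 4.83 and 2.51 CPM in NF1 f/f, against 4.11, 6.96 and 5.31 CPM in controls, with library 2 inside the control range (log2 fold change -0.92, SE 0.52, adjusted p 0.376). Its partner Tap1 had -0.61 and Tapbp, or tapasin, which loads peptide onto class I, had -0.58. The immunoproteasome subunit genes Psmb9 and Psmb8 had -0.60 and -0.30. In this group 6 of 8 fell without NF1 f/f library 2, all but Tap1 and Psmb8, with a median of -1.50. Of all genes 13.8% fell in that fit. Across the other groups the counts in that fit were 2 of 2 sensors, 1 of 3 transcription factors (Irf9), 5 of 11 effectors, 4 of 6 regulators and 3 of 4 in the guanylate-binding protein and chemokine group.

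Below B2m, H2-K1 and H2-D1, control levels descended through Ifi27 (54.7 ± 3.95 FPKM), Xaf1 (25.5 ± 6.47), Cxcl10 (20.7 ± 7.12) and Tapbp (18.1 ± 3.83) to Ifi44, Oas1a and Mx1 (1.93 ± 1.07, 1.15 ± 0.768 and 0.916 ± 0.480 FPKM). From Xaf1 to Tapbp, and from Ifi44 to Mx1, neighbours did not differ beyond their SD. Mx1 and Oas1a had 0.975 ± 0.566 and 0.682 ± 0.809 FPKM in NF1 f/f, which also lie within their SD of each other.

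Apart from Ifnk, the interferons themselves were hardly detected. Of 10 ligand genes looked up, 6 had 0 counts in every library, among them Ifnb1 and Ifna4, which allows up to 3 counts per library. Ifnk, the 1 ligand gene tested, had 0.647, 4.46 and 0.209 CPM in NF1 f/f, against 1.68, 7.46 and 4.39 CPM in controls. NF1 f/f libraries 1 and 3 lay under the controls and library 2 among them (log2 fold change -1.37, SE 0.97, adjusted p 0.480).

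Of 14 tested receptor and signalling genes 0 passed in edgeR and the median was -0.38. At an unadjusted p under 0.05 there were 3, all of them lower, beside 19.2% of all genes at that level, with 8.02% lower. Irf1, a factor induced by interferon gamma, had 4.26, 14.1 and 6.83 CPM in NF1 f/f, against 17.6, 22.8 and 24.5 CPM in controls (log2 fold change -1.37, SE 0.43, adjusted p 0.128). All NF1 f/f values lay under the controls here. DESeq2 called this gene (adjusted p 0.0280), as it did 10.1% of all genes. Ifngr1, a chain of the interferon gamma receptor, and the kinase gene Tyk2 had -0.70 and -0.68 (adjusted p 0.184 and 0.202), also without overlap. Jak1, Jak2 and Ifnar1 had 0.05, 0.03 and -0.06, and in none of these were NF1 f/f libraries 1 and 3 both under every control.

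Among 16 genes of nucleic acid sensing 0 passed in edgeR, 5 had an unadjusted p under 0.05, all of them lower, beside the same shares of all genes, and the median was -0.72. DESeq2 called 3 of them, Myd88, Tlr9 and Tmem173 (adjusted p 0.0235, 0.0346 and 0.0436), where it called 10.1% of all genes. The adaptor gene Myd88 had 1.402, 3.78 and 1.67 CPM in NF1 f/f, against 7.82, 4.52 and 8.33 CPM in controls (log2 fold change -1.60, SE 0.50, adjusted p 0.130). The DNA sensor Tlr9 and the adaptor Tmem173, or STING, had -1.43 and -1.45 (adjusted p 0.146 and 0.159). Their groups did not overlap, and NF1 f/f library 2 was the highest NF1 f/f library in all 3.

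Other interferon-stimulated genes, 33 tested and none of them among the 34, had a similar median. Of these, 0 passed in edgeR and 8 had an unadjusted p under 0.05, where 19.2% of all genes did, 7 of them lower, where 8.02% of all genes were, with 31 negative and a median of -0.67. Ifitm2, a membrane protein that blocks virus entry, had 16.3, 45.0 and 19.2 CPM in NF1 f/f, against 138, 84.2 and 37.5 CPM in controls (log2 fold change -1.69, SE 0.52, adjusted p 0.125). DESeq2 called it (adjusted p 0.0159), as it did 10.1% of all genes. The speckle protein gene Sp110 had -1.13 (adjusted p 0.200). Adar, the RNA-editing enzyme that marks cellular double strands, was 1 of 2 genes with a positive log2 fold change. It had 100.1, 69.8 and 69.6 CPM in NF1 f/f, against 45.6, 50.6 and 57.9 CPM in controls. All its NF1 f/f values were above the controls (log2 fold change 0.64, SE 0.24, adjusted p 0.189). The other, Cmpk2, had 0.29 with overlapping groups (adjusted p 0.720). Without NF1 f/f library 2, 19 of the 33 fell, where 13.8% of all genes did. In that fit 1 rose, Adar at 0.73 (adjusted p 0.0357), where 13.2% of all genes rose. Of 14 tested class I pathway genes outside the list 0 passed in edgeR and 2 had an unadjusted p under 0.05, both lower, beside the same shares, with a median of -0.26. Those were Erap1, a peptide trimming enzyme (-0.76, adjusted p 0.188), and the chaperone gene Pdia3 (-0.66, adjusted p 0.195), ahead of Nlrc5, the class I transactivator (-0.98, adjusted p 0.277). H2-Q6 and H2-Q7 were listed at 0 in every library, and their exons overlap H2-Q8 and H2-Q9 over 981 and 1521 bases, so that a 0 there does not measure expression.

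Markers of several other cell types were also low in NF1 f/f libraries 1 and 3. The 15 microglial markers summed to 584, 1065 and 416 CPM in NF1 f/f libraries 1, 2 and 3, against 1012, 787 and 932 CPM in control libraries 1, 2 and 3. Those of endothelial cells summed to 192, 384 and 254 CPM in NF1 f/f, against 509, 477 and 461 CPM in controls. Perivascular macrophage and other leukocyte markers summed to 39.4, 133 and 55.5 CPM, against 178, 133 and 134 CPM, with Ncr1 and Ly6c2 at 0 in at least 1 library each. Pericyte and smooth muscle markers summed to 159, 486 and 137 CPM, against 479, 515 and 557 CPM, and fibroblast markers to 459, 2129 and 564 CPM, against 3438, 3321 and 2650.1 CPM. Without NF1 f/f library 2, markers fell in 8 of 15 microglial, 9 of 12 endothelial, 8 of 9 pericyte and smooth muscle, 10 of 10 fibroblast, 12 of 12 oligodendrocyte and 5 of 12 leukocyte genes. In that fit 13.8% of all genes fell and 13.2% rose. Of 10 astrocyte genes 5 fell and 1 rose, with sums of 7044, 7565 and 5924 CPM in NF1 f/f, against 6105, 6223 and 6125 CPM in controls. In the same fit 9 of 10 neuron and 9 of 9 striatal projection neuron markers rose. Control library 1, the lowest control for the 34 genes, was the lowest control in the pericyte and smooth muscle, astrocyte, oligodendrocyte and neuron sums, and not in the microglial, leukocyte, endothelial, fibroblast or striatal sums. The part of these markers in the values of the 34 genes was not tested. Striatal projection neurons have their cell bodies outside the optic nerve, and their markers were high in all 3 NF1 f/f libraries. The part of RNA from outside the nerve in the values of the 34 genes was not tested. In bulk RNA, fewer cells of a type and less RNA per cell cannot be told apart.

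**Figure D4:**
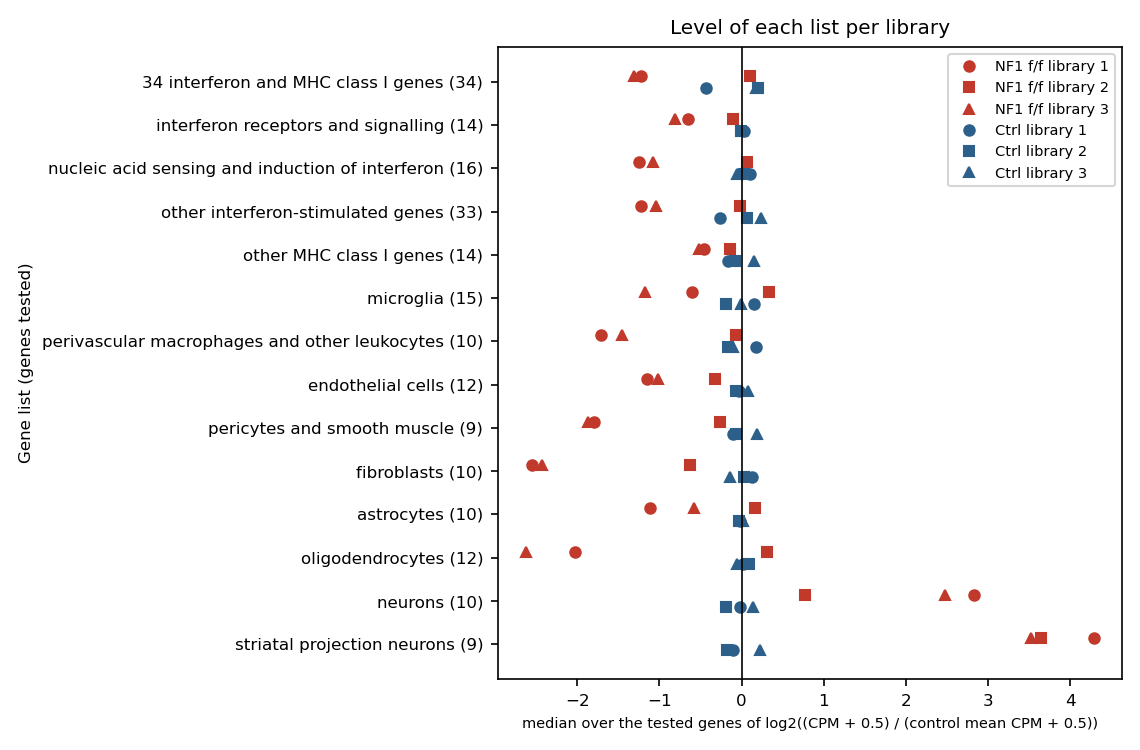
For each gene list (number of genes tested in brackets), points give the median over its genes of log2 of (CPM + 0.5) over (control mean CPM + 0.5) in each library, NF1 f/f in red above Ctrl in blue. The 34 genes stand at -1.22, 0.10 and -1.31 in NF1 f/f libraries 1, 2 and 3, on the same side as the glial and vessel lists in libraries 1 and 3, while both neuron lists are positive in all NF1 f/f libraries.

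The 34 genes were also split by the response element, as a description. The 14 with a match had a median log2 fold change of -0.65 and 11 (78.6%) were under every control in both NF1 f/f libraries 1 and 3. The 13 with a window and no match had -0.60 and 10 (76.9%). Among tested genes outside the list, 418 with a match had a median of -0.06, and in 130 (31.1%) libraries 1 and 3 were both under every control, where 11555 genes without a match had a median of 0.00 to 2 decimals and 3142 such genes (27.2%). A match is a run of letters, not a bound site, and a window without a match may hold a looser form of the element.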

How the data were processed

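Raw counts of fragments for each gene were deposited. Per the file headers, featureCounts 1.4.6-p4 counted read pairs over exons of the UCSC mm10 annotation without using strand. TopHat is named in the submitters' processing notes. RNA was amplified (NuGEN Ovation) before Nextera XT libraries were made, per the labels' protocols. The other deposited value used is exon length in bases, per the file headers.

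Counts were tested with edgeR 4.0.16 (R 4.3.3) by quasi-likelihood with TMM scaling, filterByExpr (minimum count 10), no covariate and Benjamini-Hochberg adjustment over all 16315 genes tested, at 0.05. The SE is the log2 fold change over the square root of F. CPM uses TMM-scaled library sizes, and FPKM is CPM per kilobase of exon. All pairs of libraries differed beyond sampling noise (chi-square per degree of freedom at least 45.6). Alternatives were DESeq2 1.42.0, limma 3.58.1 voom, other scalings and filters, Xist as a covariate, and leaving out libraries. Replicate numbers follow the order of deposit.

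Members, lists and naming rule were chosen with earlier results of these data known. All members are named. Per-library values are given for the 3 members per role with the smallest p and the 1 with the highest FPKM, and up to 3 genes per pathway list were named by smallest p. Isg15 and Oas1a details, Ifnar1, Jak1, Jak2, Parp9, Cmpk2, H2-Q6, H2-Q7 and ligand genes at 0 were added after their values were seen. Single values of a few genes on the lists are not reported here.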

Additional observations from a re-analysis of the deposited data

How the results depend on the processing

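No paired analysis was possible because the labels give no replicate numbers. The count of 0 members called held under every alternative except without NF1 f/f library 2 (leaving out single libraries gave 0 to 21 of 34). The members' median stayed negative in all fits but that of NF1 f/f library 2 alone, where it was 0.10 (range leaving out single libraries -1.25 to -0.41). Leaving out single libraries, medians ran from -1.10 to -0.42 for sensors, -0.74 to -0.41 for transcription factors, -1.24 to -0.28 for effectors, -1.31 to -0.39 for regulators, -1.21 to -0.46 for guanylate-binding proteins and Cxcl10, -1.50 to -0.36 for MHC class I, -0.86 to -0.18 for receptors and signalling (0 to 6 called), -1.38 to -0.42 for nucleic acid sensing (0 to 9), -1.19 to -0.48 for other interferon-stimulated genes (0 to 20) and -0.48 to -0.13 for other class I genes (0 to 3).

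With NF1 f/f library 2 alone the medians were -0.14 for sensors, -0.24 for transcription factors, 0.23 for effectors, 0.10 for regulators, -0.0007 for guanylate-binding proteins and Cxcl10, 0.15 for MHC class I, -0.10 for receptors and 0.072 for nucleic acid sensing, and 222 genes in all passed. DESeq2 called 1 receptor or signalling gene, 3 sensing genes and 1 other interferon-stimulated gene, beside 10.1% of all genes. By limma-voom the receptor median was -0.59. Genes called over the whole table, 537, were 870 with no filter on low counts, 1645 by DESeq2, 1073 at 0.1, 0 with Xist as a covariate or in the libraries with high Xist alone, and 51 to 4551 leaving out single libraries. No cause was tested.

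Single genes changed sign in a few fits, none of them called. Mx1 became -0.036 by limma-voom and -0.30 with Xist as a covariate. Leaving out single libraries, Mx1 ranged from -0.42 to 0.45, Ifi44 from -0.50 to 0.31 and Psmb8 from -1.40 to 0.22. With 3 libraries a group and a biological coefficient of variation of 0.362, changes the size of the members' median are hard to detect.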
